A study of Mus musculus with 6 samples.

Results

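The 10 genes described here carry signals of the bone morphogenetic proteins (BMPs): the ligands Bmp2, Bmp4, Bmp5 and Bmp6, the receptors Bmpr2 and Acvrl1, the secreted antagonist Grem1, and the target genes Id1, Id2 and Id3. They were taken by symbol from a table of 21999 genes, with earlier results of these data known, and all 10 were found once each. All 10 passed edgeR's filter on low counts, as did 13609 genes in all.

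Total RNA was sequenced from lung microvascular endothelial cells (LMVEC) of untreated mice of strain SV129/B6. The 3 control libraries came from Ptprz1+/+ mice and the other 3 from mice labelled Ptprz1-/-, that is, without a working copy of the gene for the receptor tyrosine phosphatase PTPRZ1. Each library is 1 separate isolation that pooled 2 to 5 mice aged 3 to 8 weeks. The lung cells were grown to confluence in medium with endothelial growth supplement and heparin, and then separated on magnetic beads carrying an antibody to CD31.

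BMPs are secreted as dimers and bring together a type II and a type I receptor on the cell surface. The active type I receptor phosphorylates SMAD1, SMAD5 and SMAD9, which enter the nucleus with SMAD4 and raise transcription of the Id genes, whose proteins bind E proteins and keep them off DNA. In lung endothelium the pathway is best known through BMPR2 and ALK1, the receptors encoded by Bmpr2 and Acvrl1, whose loss is linked to pulmonary hypertension and to vascular malformation.

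The libraries hold between 14496881 and 17709663 counts. Values per library are given in the order of replicates 1, 2 and 3, and Ptprz1-/- stands for the libraries labelled so. Ptprz1 itself had 197, 1837 and 508 counts in Ptprz1+/+ and 1138, 1320 and 895 in Ptprz1-/-, so its total count did not separate the genotypes and every direction below rests on the labels. Endothelial markers were at low levels in 4 libraries: Pecam1, which encodes CD31, stood at 1.36 to 4.40 CPM in replicates 1 and 2 of both genotypes, against 91.0 CPM in Ptprz1+/+ replicate 3 and 32.4 CPM in replicate 3 labelled Ptprz1-/-. CPM are counts scaled to a common library size after TMM normalization. The fibroblast collagen Col1a1 was at 2494 to 5992 CPM in all 6 libraries. Some libraries also stood apart in other marker lists: 8 proliferation markers summed to 772 CPM in Ptprz1+/+ replicate 2 and to between 55.8 and 169 CPM elsewhere, and 6 mesothelial markers summed to 1380 CPM in replicate 1 labelled Ptprz1-/- and to between 55.8 and 279 CPM elsewhere. The 8 smooth muscle and pericyte markers summed to 4411 and 4590.1 CPM in replicate 1 of Ptprz1+/+ and of Ptprz1-/-, and to between 841 and 1849 CPM in the other 4. In such bulk RNA, fewer cells of a type and less RNA per cell cannot be told apart.

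The question was whether the genes of this pathway differ between LMVEC of both genotypes. None of the 10 did so beyond the spread between replicates. In the quasi-likelihood test of edgeR, 0 of the 10 passed a Benjamini-Hochberg adjusted p of 0.05, and neither did any of the 13609 genes (0%). At an unadjusted p under 0.05 the count was 0 of 10 against 366 of 13609 genes (2.69%). That count depended on single libraries: before adjustment, edgeR gave Id1 a p of 0.0182 and Id2 one of 0.0469 without Ptprz1+/+ replicate 3, Bmp5 one of 0.0196 without Ptprz1+/+ replicate 2, and Acvrl1 one of 0.0395 without Ptprz1-/- replicate 1, all with adjusted p of 0.990 or more. Without a filter on low counts Id1 was at 0.0481. No member had groups of CPM values that did not overlap, whereas 991 of all tested genes did (7.28%). Of the 10 log2 fold changes, 7 were above 0 (49.1% of all tested genes were) and 3 below, with a median of 0.31 beside -0.0047 over all tested genes. The adjusted p was 1.00 for each of the 10 members, and DESeq2 and limma voom passed 0 of them as well.

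Levels between genes were compared per length, as FPKM, and spanned from the antagonist down to Bmp5. Grem1 had the highest level, a mean of 505 FPKM over the 6 libraries (199 to 683), and stood above 99.1% of tested genes. Id3 followed at 182 FPKM (127 to 206), then Id1 at 38.0 (18.8 to 66.5) and Id2 at 20.7 (12.7 to 30.4), so that the targets came directly below the antagonist. Bmpr2 and Bmp4 shared a mean of 18.6 FPKM, but Bmpr2 kept within 15.2 to 22.0 while Bmp4 ranged from 3.17 to 36.9. The lower end was formed by Acvrl1 at 8.67 FPKM (5.44 to 14.6), Bmp6 at 3.04 (1.69 to 4.73), Bmp2 at 2.77 (0.234 to 9.77) and Bmp5 at 0.706 (0.310 to 1.30), the last above only 9.38% of tested genes. Of the 9 neighbouring pairs in this order, only Id3 and Id1, and Acvrl1 and Bmp6, had ranges that did not touch. Grem1 was nevertheless above Id3, and Id1 above Id2, within each of the 6 libraries.

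**Figure D1:**
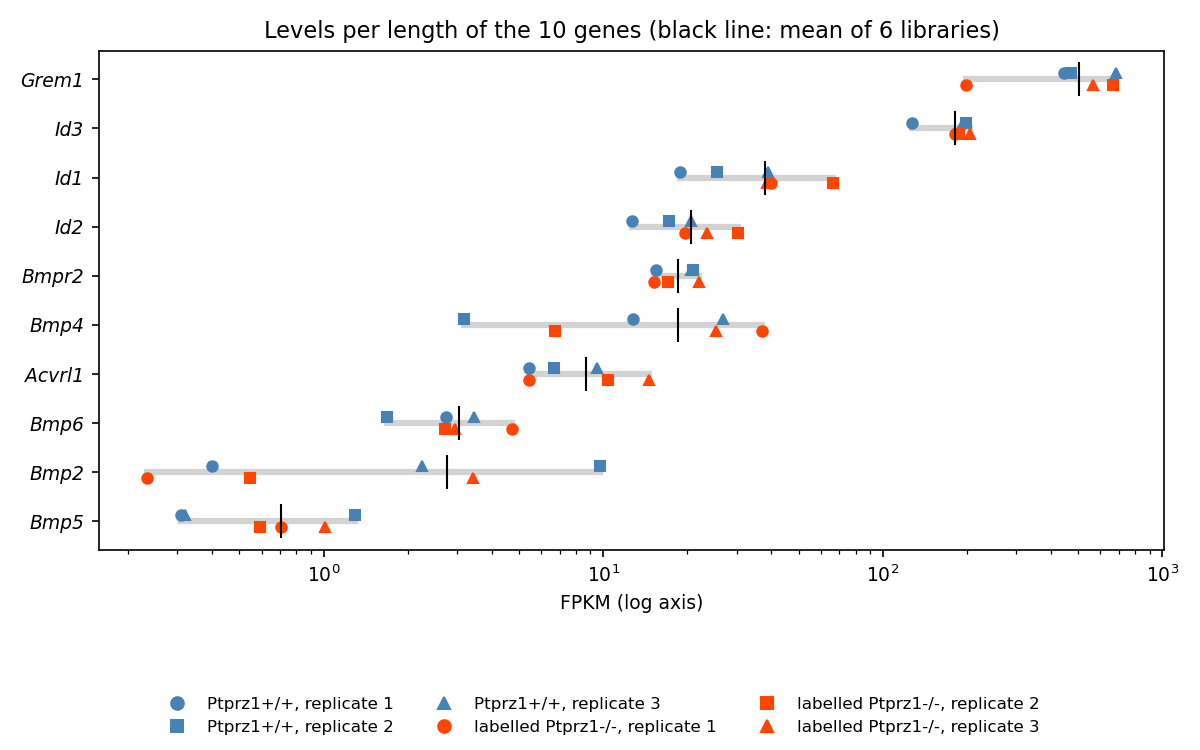
FPKM (log axis) of the 10 genes, with a point for each of the 3 Ptprz1+/+ libraries (blue) and the 3 labelled Ptprz1-/- (orange), shapes marking replicate numbers, a grey bar from lowest to highest and a black line at the mean of 6. Grem1 and Id3 lie far to the right, Bmp2 and Bmp4 have the widest bars, and both colours are mixed in each row.

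Among the ligands, the level of Bmp2 varied more than that of any other member. Bmp2 (chromosome 2 of GRCm38, 133552159 to 133562885, plus strand), a ligand of endothelial and mesenchymal cells, was read at 1.45, 33.8 and 8.27 CPM in Ptprz1+/+ and at 0.806, 2.06 and 11.6 CPM in Ptprz1-/-. One Ptprz1+/+ library was far above the rest, and the other 5 interleaved. The means were 14.5 ± 17.1 CPM (SD, n = 3) in Ptprz1+/+ and 4.83 ± 5.92 (SD, n = 3) in Ptprz1-/-, a log2 fold change of -1.59 with a standard error of 1.29 and a 95% interval from -4.70 to 1.52. The high library is also the one with the high proliferation markers, and without it the log2 fold change of Bmp2 was -0.012. Without replicate 3 labelled Ptprz1-/-, it was -3.34. The part of proliferating cells in this was not tested.

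Bmp4 (chromosome 14, 46383520 to 46390669, minus strand), a ligand with broad roles in mesoderm, vessels and lung, took the opposite place in the libraries with the extreme values. It was at 26.9, 6.38 and 57.3 CPM in Ptprz1+/+ and at 73.6, 14.8 and 49.9 CPM in Ptprz1-/-. Replicate 2 was the lowest library of each genotype, and the groups overlapped throughout. Its log2 fold change was 0.61 with a standard error of 0.84 and an interval from -1.41 to 2.63. The library highest in Bmp4, replicate 1 labelled Ptprz1-/-, was highest in mesothelial markers, and Ptprz1+/+ replicate 2 was lowest in both. Leaving out the former gave 0.10, and leaving out Ptprz1+/+ replicate 3 gave 1.47, with the part of mesothelial cells not tested.

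Bmp5 and Bmp6, which belong to another branch of the ligand family, were expressed at low levels. Bmp6 (chromosome 13, 38345716 to 38499728, plus strand), which in liver endothelium drives hepcidin and so iron balance, was at 6.71, 3.96 and 8.58 CPM in Ptprz1+/+ and 11.0, 6.93 and 6.80 CPM in Ptprz1-/-. All but the highest and the lowest library lay close together, with a log2 fold change of 0.37 (standard error 0.36, interval -0.50 to 1.23), which was 0.10 without Ptprz1-/- replicate 1 and 0.63 without Ptprz1+/+ replicate 3. Its 72 to 178 counts per library are uncertain, since 224 of the 3900 bases of its exons in GENCODE M21 overlap antisense exons of Txndc5. That gene had 6156 to 9394 counts, and the use of strand in counting is not given in the sources used here.

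For Bmp5 (chromosome 9, 75775364 to 75900310, plus strand), a ligand of skeletal development, only 20, 88 and 20 counts were found in Ptprz1+/+ and 42, 35 and 56 in Ptprz1-/-, or 1.21, 4.84 and 1.26 CPM against 2.61, 2.40 and 3.70 CPM. Both the highest and the lowest library were Ptprz1+/+, so the range of Ptprz1-/- lay within that of Ptprz1+/+. The log2 fold change of 0.25 (standard error 0.61, interval -1.21 to 1.71) became 1.23 without Ptprz1+/+ replicate 2 and -0.073 without Ptprz1+/+ replicate 1. Antisense genes also overlap exons of Bmp5 (Gm26903, 1878 of 4025 bases), Bmp4 (Gm15217, 89 of 2248) and Acvrl1 (Gm16031, 127 of 4265). These partners had at most 13 counts in any library. With the use of strand not known, such low counts do not show whether reads in the shared bases were counted. The counts of Bmp5 are therefore uncertain as well.

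Per length, Bmp4 made up most of the RNA of the 4 ligands in 5 of the 6 libraries. Its share of their summed FPKM was 78.8%, 19.9% and 81.7% in Ptprz1+/+ and 86.7%, 63.6% and 77.4% in Ptprz1-/-. The exception was Ptprz1+/+ replicate 2, where Bmp2 made up 61.3%, against 0.551% to 10.5% in the other 5. The summed level of the 4 ligands was 16.2, 15.9 and 32.8 FPKM in Ptprz1+/+ and 42.5, 10.6 and 32.6 FPKM in Ptprz1-/- (exact two-sided permutation p = 0.9, where 3 libraries against 3 cannot go below 0.10). The highest and the lowest sum were both in libraries labelled Ptprz1-/-.

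**Figure D2:**
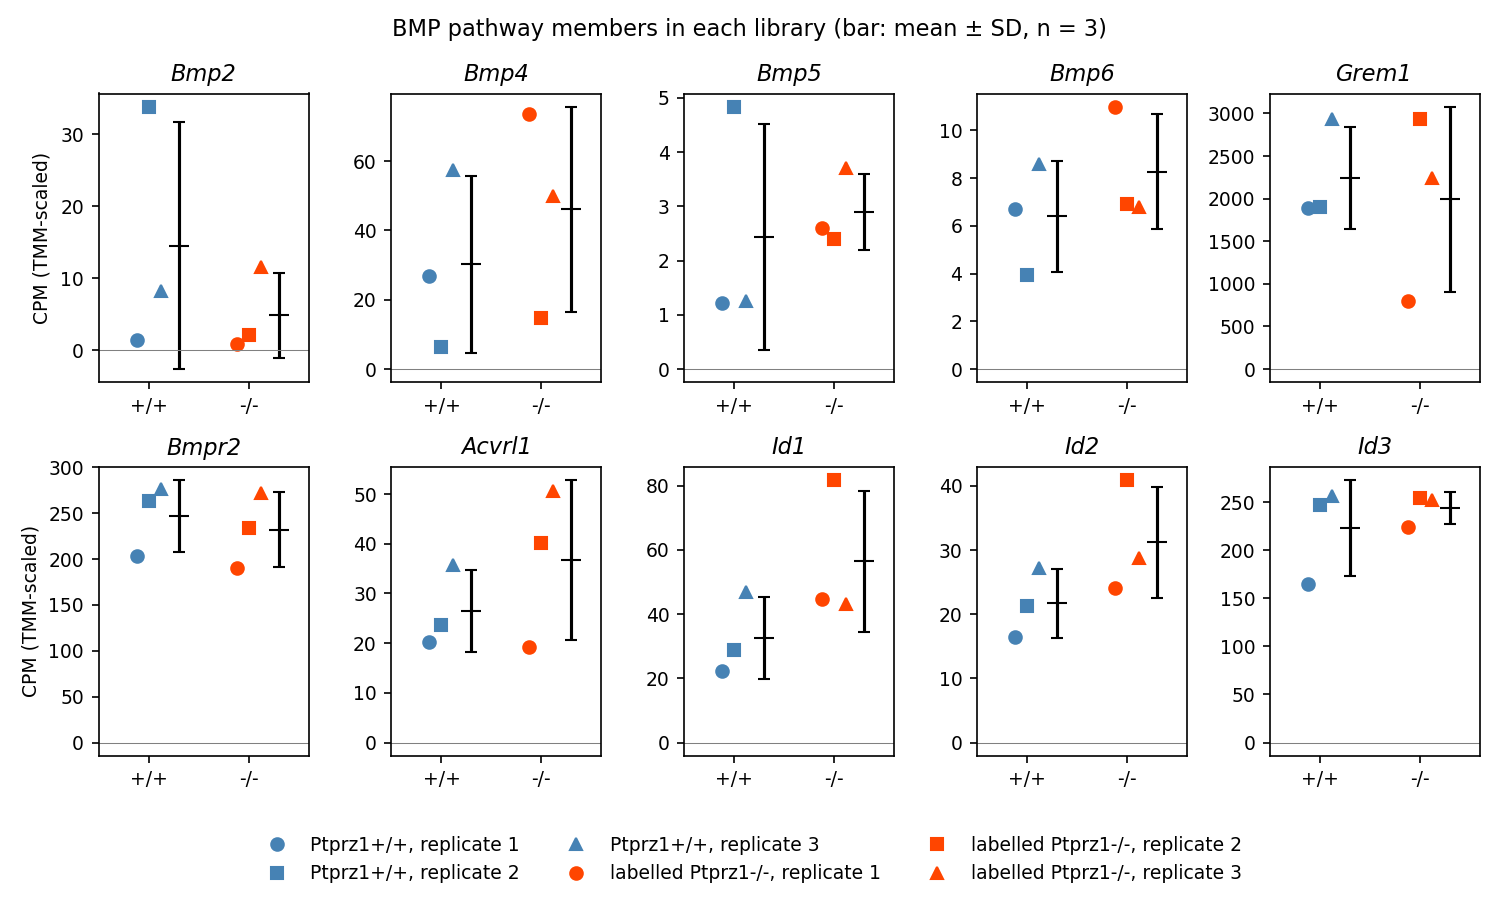
TMM-scaled CPM (linear axes that include 0) of each of the 10 genes, with 1 point per library, blue for Ptprz1+/+, orange for libraries labelled Ptprz1-/-, and black bars for the mean ± SD of 3. The points of both genotypes overlap in every panel. A single library lies far from its group, for example, in Bmp2 (33.8 CPM), Bmp5 (4.84 CPM), Grem1 (799 CPM) and Id1 (81.7 CPM).

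Grem1 (chromosome 2, 113746164 to 113758646, minus strand) encodes gremlin 1, a secreted protein that binds BMP2 and BMP4 and keeps them from their receptors, and is a product of fibroblasts and smooth muscle more than of endothelium. It was at 1887, 1898 and 2932 CPM in Ptprz1+/+ and at 799, 2930.2 and 2248 CPM in Ptprz1-/-. The lowest library and the second highest carried the same label, so the groups overlapped throughout. The log2 fold change was -0.17 with a standard error of 0.49 and an interval from -1.35 to 1.02, and 0.21 without the low library, which is the one with high mesothelial markers. Fibroblast markers, 10 in all, summed to 18410.5, 18009 and 25876 CPM in Ptprz1+/+ and 12993, 11111 and 27459 CPM in Ptprz1-/-, while smooth muscle and pericyte markers summed to 4411, 841 and 1849 CPM against 4590.1, 1649 and 1537 CPM. The latter sum was highest in the library where Grem1 was lowest, and most of it there was Acta2 and Tagln (1636 and 1875 CPM). Tagln, Cnn1 and Des were highest in that library. Acta2 and Myh11 were highest in Ptprz1+/+ replicate 1, Pdgfrb and Cspg4 in Ptprz1-/- replicate 2, and Rgs5 in Ptprz1-/- replicate 3. The part of either cell type in the level of Grem1 was not tested.

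Set against the ligands, Grem1 had the higher level in every library, by FPKM. Its level over the summed level of the 4 ligands was 27.5, 29.5 and 20.8 in Ptprz1+/+ and 4.68, 62.9 and 17.3 in Ptprz1-/-. Both ends of this range came from Ptprz1-/- libraries, where replicate 1 had the lowest Grem1 with the highest ligand sum and replicate 2 the lowest ligand sum. A difference between genotypes was not detectable in this ratio (exact permutation p = 0.7).

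Bmpr2 (chromosome 1, 59763400 to 59879014, plus strand), the type II receptor, had the narrowest range of the 10 genes in log2 CPM. That range was 0.54, beside 0.63 for Id3. The level of Bmpr2 was 203, 263 and 276 CPM in Ptprz1+/+ and 190.1, 234 and 272 CPM in Ptprz1-/-. The lowest library was a Ptprz1-/- one and the highest a Ptprz1+/+ one, with the other 4 mixed between them. The means were 247 ± 39.0 CPM (SD, n = 3) and 232 ± 41.1 (SD, n = 3), with a log2 fold change of -0.091, a standard error of 0.20 and an interval from -0.56 to 0.38.

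Acvrl1 (chromosome 15, 101128522 to 101145336, plus strand) encodes ALK1, a type I receptor largely of endothelium. It was at 20.2, 23.6 and 35.8 CPM in Ptprz1+/+ and at 19.2, 40.2 and 50.7 CPM in Ptprz1-/-. Replicate 1 labelled Ptprz1-/- was the lowest of all and the other 2 of that label were the highest, so the groups overlapped. Its log2 fold change was 0.47 with a standard error of 0.39 and an interval from -0.47 to 1.41. It was 0.16 without Ptprz1-/- replicate 3 and 0.78 without Ptprz1-/- replicate 1. In the same libraries the 12 endothelial markers summed to 36.4, 39.4 and 594 CPM in Ptprz1+/+ and 19.8, 24.0 and 199 CPM in Ptprz1-/-. Within each genotype Acvrl1 was highest in the library with most endothelial marker RNA, yet it stood at 40.2 CPM in Ptprz1-/- replicate 2, where that sum was 24.0 CPM, and the part of endothelial cells in its level was not tested.

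By FPKM, Bmpr2 exceeded Acvrl1 in every library, at a ratio of 2.83, 3.14 and 2.17 in Ptprz1+/+ and 2.80, 1.64 and 1.51 in Ptprz1-/- (exact permutation p = 0.2). From the wider list of receptors, the type I receptor Bmpr1a (ALK3) was at 144 ± 6.67 CPM (SD, n = 3) in Ptprz1+/+ and 162 ± 14.9 (SD, n = 3) in Ptprz1-/-, and Acvr1 (ALK2) at 48.2 ± 2.99 and 48.4 ± 1.65 CPM, whose log2 fold change of 0.0081 had an interval from -0.25 to 0.27. The type II receptor Acvr2a had a log2 fold change of 0.07 (interval -0.48 to 0.62). For the co-receptor endoglin, encoded by Eng, it was -0.19 (interval -1.08 to 0.69). Eng was at 101, 59.4 and 142 CPM in Ptprz1+/+ and 59.6, 115 and 90.5 CPM in Ptprz1-/-.

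Of the Id genes, the direct targets, Id1 and Id2 had the smallest unadjusted p-values of the 10, with higher means in Ptprz1-/-. Id1 (chromosome 2, 152736251 to 152737410, plus strand), the Id gene most used as a readout of BMP signalling in endothelium, was at 22.2, 28.8 and 46.8 CPM in Ptprz1+/+ and at 44.6, 81.7 and 43.0 CPM in Ptprz1-/-. The groups overlapped through Ptprz1+/+ replicate 3 alone, which lay above 2 of the 3 libraries of the other label. With means of 32.6 ± 12.7 CPM (SD, n = 3) and 56.4 ± 21.9 (SD, n = 3), the log2 fold change was 0.79 with a standard error of 0.36 and an interval from -0.088 to 1.67. By edgeR's quasi-likelihood test the p was 0.0703 before adjustment, rank 568 of 13609 genes, and the exact permutation p was 0.3. It did not pass the test.

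Id2 (chromosome 12, 25093801 to 25096092, minus strand), which acts in lymphoid and mammary development among other tissues, had the same highest and lowest libraries as Id1. It was at 16.5, 21.3 and 27.2 CPM in Ptprz1+/+ and 24.1, 40.9 and 28.7 CPM in Ptprz1-/-. Only Ptprz1+/+ replicate 3 and Ptprz1-/- replicate 1 overlapped. Its log2 fold change was 0.53 with a standard error of 0.27 and an interval from -0.12 to 1.17, and it ranked 812 of 13609 genes (unadjusted edgeR p = 0.0930, exact permutation p = 0.2). A stretch of 380 bases of its transcript is 91.8% identical to Gm6175, which is not in the table, so reads could be shared between them.

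Id3 (chromosome 4, 136143497 to 136145755, plus strand), often expressed with Id1 in vessels, had the highest level of the Id genes. Its values were 165, 247 and 256 CPM in Ptprz1+/+ and 224, 254 and 252 CPM in Ptprz1-/-. Apart from the low Ptprz1+/+ replicate 1, the libraries of both labels lay within a narrow band. The log2 fold change was 0.13 with a standard error of 0.20 and an interval from -0.35 to 0.60.

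Id3 made up most of the Id RNA per length. Its share of the summed FPKM of the 3 Id genes was 80.1%, 82.3% and 76.4% in Ptprz1+/+ and 75.4%, 66.0% and 76.8% in Ptprz1-/-, while that of Id1 was 11.9%, 10.6% and 15.4% against 16.5%, 23.4% and 14.4%. Ptprz1-/- replicate 2 had the smallest share of Id3 and the largest of Id1. The sum of all 3 was 159, 241 and 253 FPKM in Ptprz1+/+ and 241, 285 and 268 FPKM in Ptprz1-/- (exact permutation p = 0.3), and the shares of Id3 and Id1 each gave p = 0.2 by the same exact test.

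**Figure D3:**
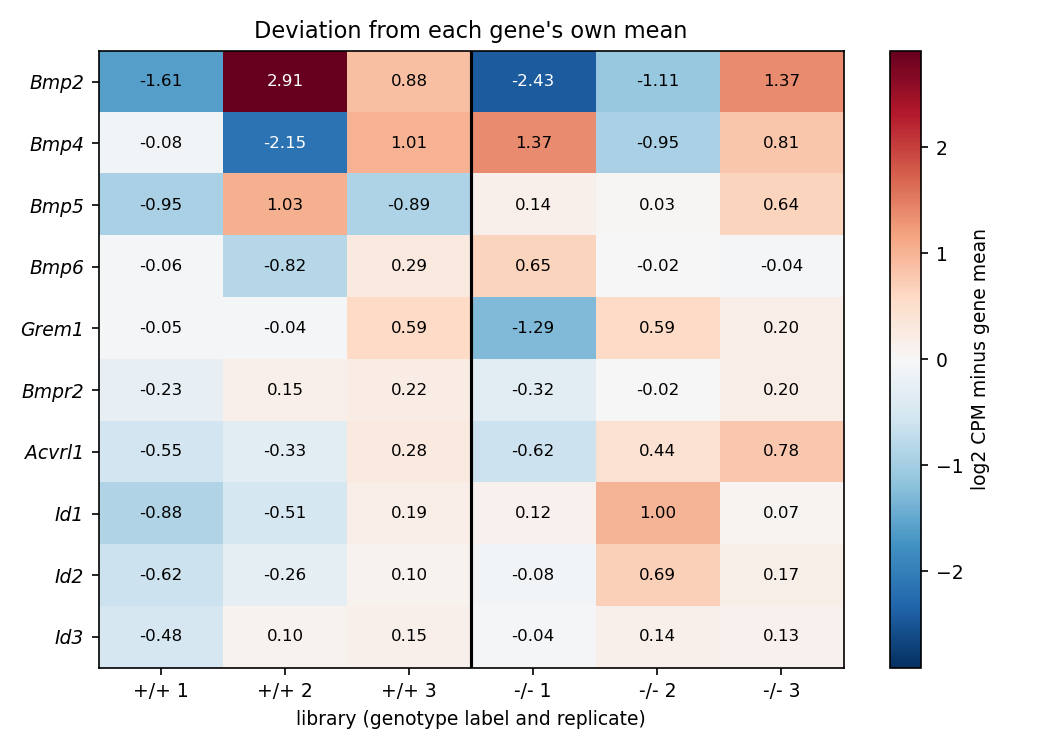
Deviation of log2 CPM from the mean of each gene (colour and printed value) for the 10 genes (rows) in the 6 libraries (columns, with the genotype label and replicate number). Id1 and Id2 are lowest in Ptprz1+/+ replicate 1 and highest in Ptprz1-/- replicate 2, and Bmp2 and Bmp4 have opposite signs in Ptprz1+/+ replicate 2 (2.91 and -2.15) and in Ptprz1-/- replicate 1 (-2.43 and 1.37).

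The promoters of the genes were read from RefSeq on GRCm38.p6, which held entries for 7 of the 10 (all but Bmp2, Acvrl1 and Id1). The 250 bases before each start were searched on both strands for GGCGCC, a GC-rich element of BMP-responsive promoters that reads the same on both strands, and for CAGAC, which holds the core bound by SMAD proteins and reads GTCTG on the other strand. GGCGCC occurred in 3 of the 7 (Bmpr2, Id2 and Grem1), beside 9.59% of 32851 promoters. CAGAC occurred in 4 (Bmp5, Bmp6, Id3 and Grem1), beside 42.2%. The windows of Bmpr2, Id2 and Grem1 were 64.0%, 62.8% and 72.0% G and C. Those of Bmp4, Bmp5, Bmp6 and Id3 were at 63.2%, 42.8%, 68.8% and 62.8%. The 32851 promoters were not matched for G and C content, so these shares do not show an enrichment. The starts used here are those of RefSeq, which can differ from the gene coordinates given above. By those coordinates, the windows of Bmpr2 (59764029 to 59764278) and Id3 (136143572 to 136143821) lie inside the gene. The matches in them are therefore upstream of the RefSeq start only. These motifs can share 1 base at most, and a match describes the letters, not binding. The windows of Id2, an Id target, and of Grem1, the only one with both motifs, are shown 5′ to 3′ on the strand of the gene, with the motifs in capitals. That of Id2 lies at chr12:25096093-25096342 on the minus strand, with the first base of GGCGCC 231 bases before the start. That of Grem1 lies at chr2:113758649-113758898 on the minus strand, with CAGAC 219 bases and GGCGCC 78 bases before the start.
Id2 promoter: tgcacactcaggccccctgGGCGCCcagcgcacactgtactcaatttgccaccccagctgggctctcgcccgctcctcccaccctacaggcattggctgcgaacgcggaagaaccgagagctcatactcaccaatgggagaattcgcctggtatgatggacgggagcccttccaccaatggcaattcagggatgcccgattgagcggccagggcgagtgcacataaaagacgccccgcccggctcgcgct
Grem1 promoter: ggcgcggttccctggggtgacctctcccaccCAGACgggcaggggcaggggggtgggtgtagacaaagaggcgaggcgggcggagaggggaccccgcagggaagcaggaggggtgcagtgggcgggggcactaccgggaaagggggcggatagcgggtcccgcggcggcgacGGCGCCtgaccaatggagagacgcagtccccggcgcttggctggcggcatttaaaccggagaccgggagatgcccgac

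The fold changes rest on 6 libraries of unequal makeup, so each library was left out in turn. Bmp4, Bmp6, Acvrl1, Id1 and Id2 stayed above 0 and Bmp2 below 0 in all 6 such fits, while Bmp5, Bmpr2, Id3 and Grem1 changed sign in at least 1. Id1 was at 0.43 once Ptprz1-/- replicate 2 was omitted and at 1.14 once Ptprz1+/+ replicate 3 was, and Id2 at 0.28 and 0.72 for the same pair of libraries. With both endothelial-rich replicates 3 left out, an alternative added after the data were seen, Id1 had a log2 fold change of 1.31 (unadjusted p = 0.0179 and adjusted p = 0.999 by edgeR). In those 4 libraries Bmp6, Id1 and Id2 had groups that did not overlap, as had 26.6% of all tested genes. Without the proliferation-high and mesothelial-high libraries instead, the groups of Bmp5, Acvrl1 and Id2 did not overlap, as for 26.8% of all tested genes. There Bmp5 had a log2 fold change of 1.3 (unadjusted p = 0.0334 by edgeR), which did not pass after adjustment.

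**Figure D4:**
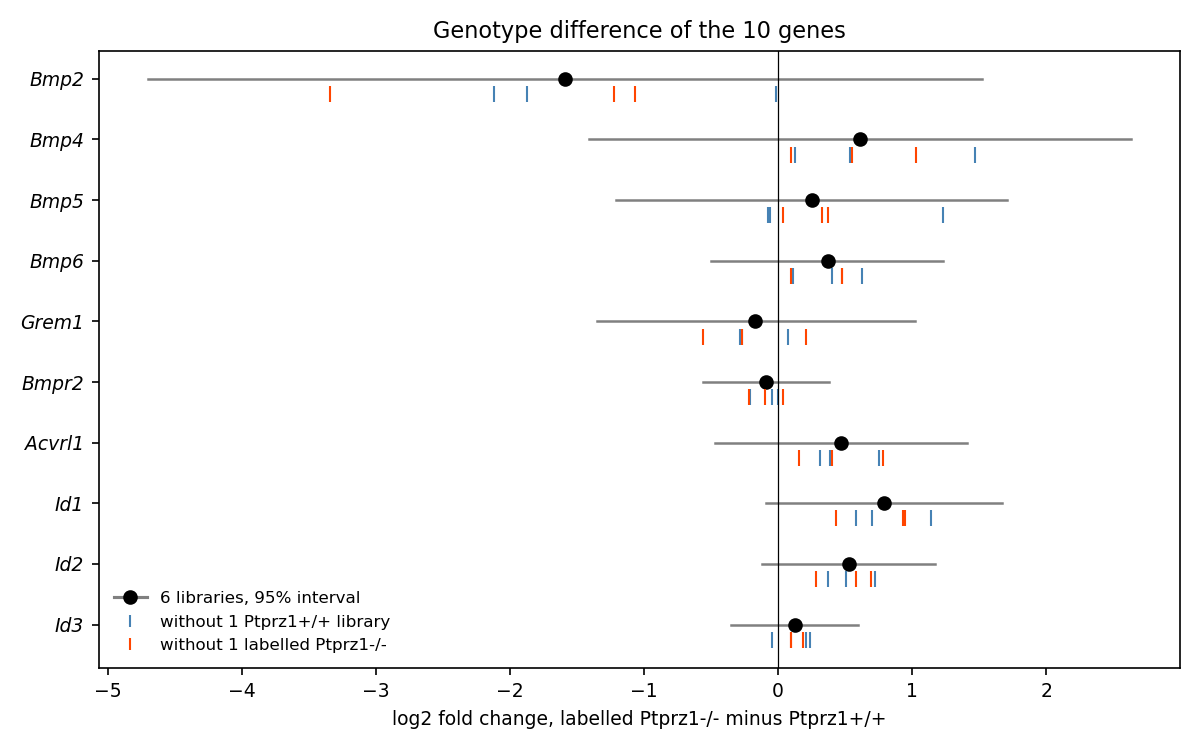
Log2 fold change of the 10 genes, libraries labelled Ptprz1-/- minus Ptprz1+/+, with the 6-library estimate (black point), its 95% interval (grey line) and the estimates without 1 Ptprz1+/+ library (blue ticks) or 1 labelled Ptprz1-/- (orange ticks). Every interval crosses 0, the interval of Id1 starts nearest to it at -0.088, and the ticks of Bmp2 spread from -3.34 to -0.012.

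The rest of the pathway was described from lists that hold 56 further genes, of which 53 are in the table and 41 were tested. None of the 41 passed the adjusted threshold, and none had an unadjusted p under 0.05 by edgeR with all 6 libraries. With 1 library left out, of the genes named below, Chrd, Smad1, Smad6 and Tcf4 each had such a p in 1 fit (0.0245, 0.0169, 0.0220 and 0.0319), with adjusted p of 0.803 or more, as had Chrd under limma voom with 6 libraries (0.0421). Their log2 fold changes were above 0 for 27 and below for 14, with a median of 0.15. Of the 41, 4 had groups that did not overlap (9.76%, beside 7.28% of all genes). Of these, 3 were higher in Ptprz1-/-, where 3.55% of all genes were, and 1 was lower, where 3.73% were. Without overlap, the exact permutation p is fixed at its floor of 0.1. The values of 0.1 given below for these 4 therefore only repeat that their groups do not overlap.

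The inhibitory SMAD encoded by Smad6, itself a BMP target that blocks type I receptors, was at 21.0, 23.5 and 21.6 CPM in Ptprz1+/+ and 34.2, 29.0 and 24.0 CPM in Ptprz1-/-. All 3 Ptprz1-/- values were above the Ptprz1+/+ values, with a gap smaller than the spread within either label. Its log2 fold change of 0.40 (standard error 0.17, unadjusted edgeR p = 0.0506, exact permutation p = 0.1) did not pass the test, nor did that of Smad7, the other inhibitory SMAD, at 0.32 (standard error 0.27). Of the 8 SMADs and SMAD regulators tested, 7 had a log2 fold change above 0, as did 49.1% of all tested genes, and their median was 0.24. Smad5 was the exception at -0.047 (standard error 0.15), and Smad1, another receptor-activated SMAD, was at 0.30 (standard error 0.25), or 0.61 without Ptprz1+/+ replicate 3 and 0.12 without Ptprz1+/+ replicate 2.

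Chrd encodes chordin, a secreted antagonist that binds BMPs, and was at 19.9, 9.67 and 16.7 CPM in Ptprz1+/+ and 22.3, 26.1 and 22.7 CPM in Ptprz1-/-. Again the groups did not overlap, and the log2 fold change of 0.62 (standard error 0.28, unadjusted edgeR p = 0.0632, exact permutation p = 0.1) did not pass. Bmp1, which despite its name encodes a proteinase that cleaves procollagen and chordin, was at 304, 389 and 295 CPM in Ptprz1+/+ and 280.4, 248 and 267 CPM in Ptprz1-/-, with a log2 fold change of -0.31 (standard error 0.16, unadjusted edgeR p = 0.096, exact permutation p = 0.1). It was the only one of the 41 whose Ptprz1-/- values were all lower. Of the 13 antagonists and modulators tested, 8 were above 0 and 5 below, with a median of 0.16, and Bmper, which encodes an endothelial BMP modulator, was at 0.19 (standard error 0.32). Nog, which encodes noggin, did not pass the filter and was at no more than 0.302 CPM in any library.

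The list of other targets had 4 tested genes with a median of -0.023. In it, Atoh8, a transcription factor gene induced by BMP in endothelium, was at 18.4, 18.4 and 16.7 CPM in Ptprz1+/+ and 25.1, 18.8 and 20.7 CPM in Ptprz1-/-, apart by a small gap and at a log2 fold change of 0.27 (standard error 0.16, unadjusted edgeR p = 0.136, exact permutation p = 0.1). Bambi, which encodes a decoy receptor, was at 12.6 CPM in Ptprz1+/+ replicate 2 and 3.02 to 4.29 CPM elsewhere. Its log2 fold change of -0.77 (standard error 0.55) became 0.091 without that library. Among the 3 E protein genes, the partners of Id proteins, the median was 0.064 and Tcf4 was at 0.25 (standard error 0.19). The 9 receptors and co-receptors had a median of 0.0081, and the 4 other ligands tested one of 0.75, with no groups apart in either list.

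**Figure D5:**
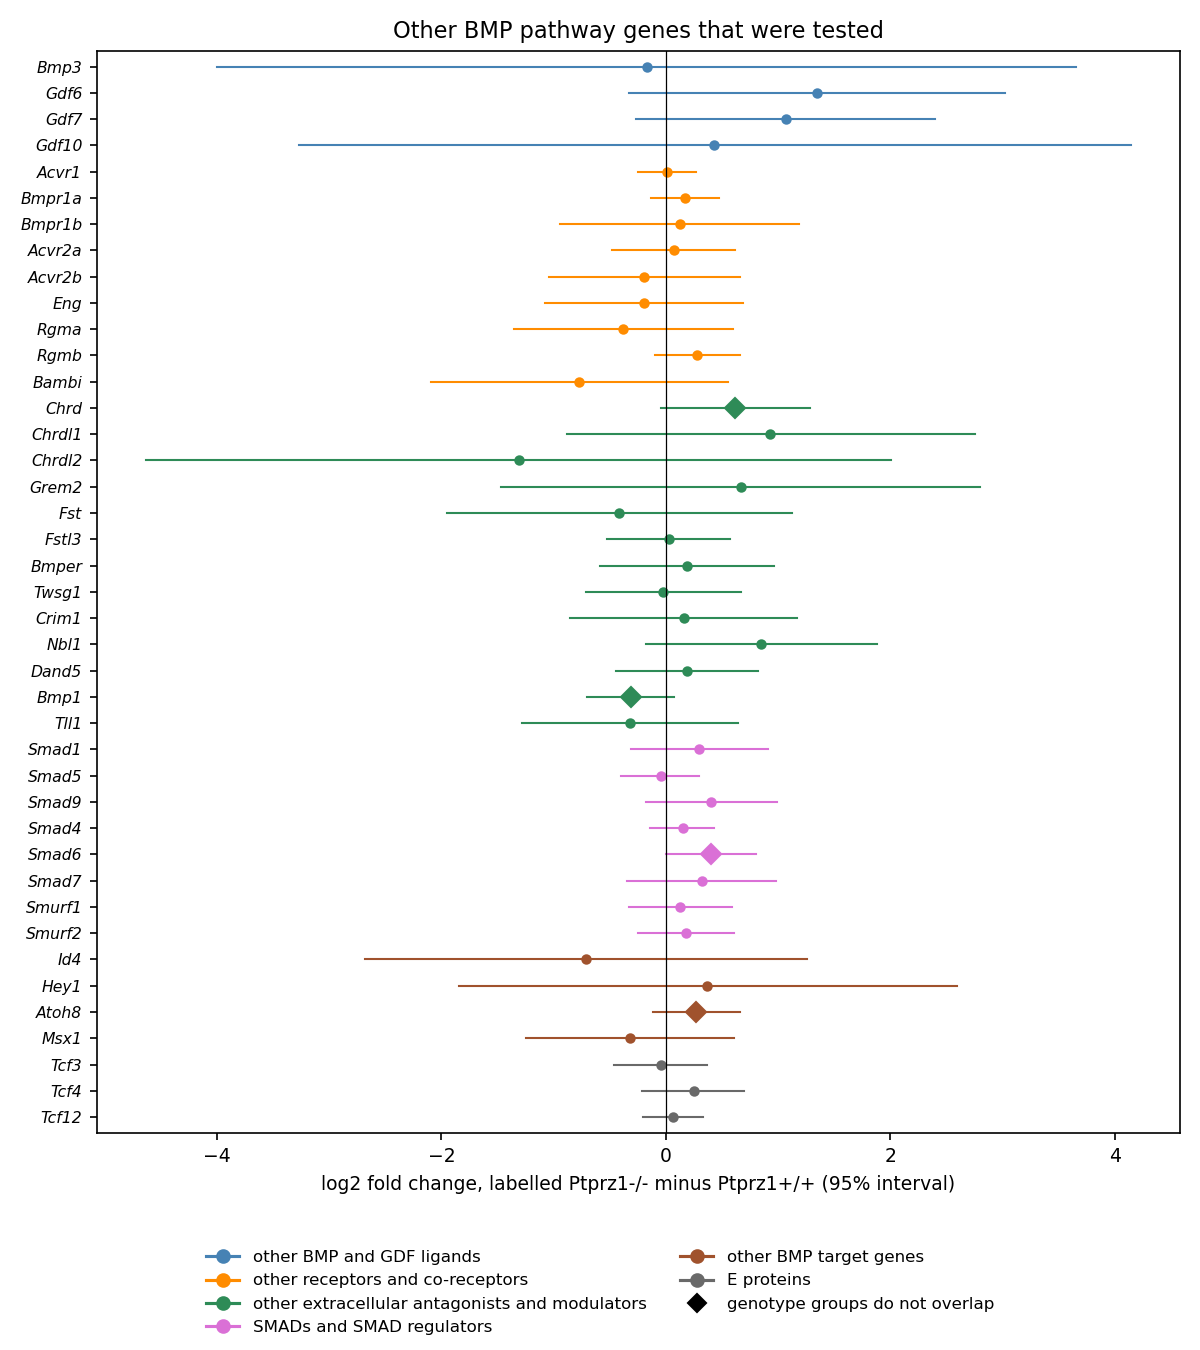
Log2 fold change (libraries labelled Ptprz1-/- minus Ptprz1+/+) with its 95% interval for the 41 other BMP pathway genes tested, coloured by list, with diamonds for the 4 whose genotype groups did not overlap. All intervals include 0, those of Smad6 and Chrd start just below it (-0.0015 and -0.046), and those of the other ligands are wide.

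Which genes vary as Bmp2 and Bmp4 do, the members with the widest ranges (5.34 and 3.52 in log2 CPM), was asked over the 6 libraries by the root mean square difference of mean-centred log2 CPM. Closest to Bmp2 were Fmo1 (0.42), a flavin monooxygenase gene, Col24a1 (0.42), a collagen gene, and Sprr2b (0.45), a gene of epithelial cornification. Fmo1 was at 0.544, 11.8 and 4.80 CPM in Ptprz1+/+ and 0.310, 0.755 and 9.12 CPM in Ptprz1-/-, high in the same 3 libraries as Bmp2. Closest to Bmp4 were Sema3f (0.35), which encodes a semaphorin, Aldh1a1 (0.36), a retinaldehyde dehydrogenase gene, and Lama3 (0.40), a laminin chain gene. Aldh1a1 was at 29.8, 4.56 and 56.5 CPM in Ptprz1+/+ and 79.5, 24.3 and 47.6 CPM in Ptprz1-/-, with the 6 libraries in the same order as for Bmp4. Of the other 9 members, the one nearest to Bmp4 was Bmp6 at 0.86, and Bmp2 was farthest from it at 2.67. Sprr2b (0.062 to 2.97 CPM) and Lama3 (0.11 to 2.67 CPM) were low in all 6 libraries, so their likeness rests on few reads. Fmo1 was low too, at 0.310 to 0.755 CPM, in Ptprz1+/+ replicate 1 and Ptprz1-/- replicates 1 and 2. In those libraries Bmp2 had 24, 13 and 30 counts, so the likeness of Fmo1 to Bmp2 also rests partly on few reads. Likeness over 6 libraries is a description, since all points share their library.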

How the data were processed

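Condition and replicate were taken from the labels. The authors deposited a table of 21999 genes with raw counts per library, not normalized, and FPKM values, which the authors computed per gene length and library total. Their own fold changes and p-values, and their lists of called genes, were not used here. The submitters' processing notes name STAR, HTSeq, TopHat, DESeq2 and edgeR and the build GRCm38 (mm10), with no roles or settings. The use of strand is not given in the sources used here.

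Counts were tested with edgeR 4.0.16 in R 4.3.3 (filterByExpr, TMM, then glmQLFit with genotype alone and glmQLFTest) on 13609 genes, and p-values were adjusted over all of them after Benjamini-Hochberg, with 0.05 as the threshold. The standard error of a log2 fold change is its size over the square root of F. The CPM of single genes were compared by an exact two-sided permutation test on log2(CPM + 0.5), over 20 arrangements. For sums, shares and ratios of FPKM the same test used log2 of the value with nothing added. With 14496881 to 17709663 counts per library, low genes such as Bmp5 rest on few reads, 20 to 88 per library. Overlapping exons were read from GENCODE M21, and its transcripts were aligned with minimap2 2.31.

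The members, the pathway and marker lists and the tests were chosen with earlier results of these data known. The text names the 10 members, genes of the wider lists with groups apart or an unadjusted p under 0.05, a fixed set of receptors, SMADs and modulators, and the 3 genes most like each of the 2 most variable members. Alternatives were DESeq2 1.42.0, limma voom (limma 3.58.1), upper-quartile scaling, other filters, each library left out and a replicate block. The functions were tested on simulated data. Fits to 4 libraries were added after the data were seen.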

Additional observations from a re-analysis of the deposited data

How the results depend on the processing

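No member passed an adjusted p of 0.05 under any alternative run. Over all genes DESeq2 passed 31, and the other alternatives 0. Of 140 comparisons of a member's log2 fold change with an alternative, 128 kept its sign and 12 did not, and of 196 for the named genes of the wider lists, 182 kept it and 14 did not. The cause of a changed sign was not tested.

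Leaving out each library in turn gave -0.073 to 1.23 for Bmp5, -0.22 to 0.038 for Bmpr2, -0.042 to 0.24 for Id3 and -0.56 to 0.21 for Grem1. In the wider lists it gave -0.04 to 0.045 for Acvr1, -0.086 to 0.24 for Acvr2a, -0.46 to 0.14 for Eng, -1.11 to 0.091 for Bambi, -0.07 to 0.48 for Bmper and -0.13 to 0.068 for Smad5. Both sets of 4 libraries left 3 members with groups apart. Without the proliferation-high and mesothelial-high libraries the log2 fold change was 0.49 for Bmp2, -0.38 for Bmp4, -0.16 for Bmp6, 0.077 for Bmpr2, 0.10 for Grem1, 0.067 for Bambi and 0.12 for Smad5. Without replicates 3 it was -0.28 for Bmp5, -0.048 for Acvr1 and 0.12 for Eng.

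Same-numbered libraries did not deviate together in every pair (correlations of 0.436, -0.0619 and 0.516), so the numbers were not taken to pair them. With the replicate block, 0 genes passed and 690 had an unadjusted p under 0.05 (366 without it). The block gave -1.39 for Bmp2, 0.82 for Bmp4, 0.53 for Bmp5, -0.33 for Grem1 and 0.80 for Id1. By edgeR with the block, the unadjusted p was 0.0867 for Bmp4, 0.107 for Acvrl1 and 0.0581 for Id2 (0.491, 0.273 and 0.093 without it). For Id1 it was 0.0749 (0.0703 without it), and no member fell under 0.05. Replicates 1 and 3 correlated best with their own number, and replicates 2 did not. The lowest libraries held 13 counts of Bmp2 and 20 of Bmp5.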

Other observations

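Of the ligands outside the 10 genes, a pair followed the libraries that stood apart in marker lists, and both were chosen here after their values were seen. Gdf6, which encodes a ligand of joint and eye development, was at 38.8, 15.9 and 22.0 CPM in Ptprz1+/+ and at 136, 31.9 and 26.9 CPM in Ptprz1-/- (replicates 1, 2 and 3). The high value was in the library with 1380 CPM of mesothelial markers, which also had the most Bmp4. Its log2 fold change was 1.35 with a standard error of 0.70, and the groups overlapped. Bmp3, which encodes a ligand that opposes other BMPs in bone, was at 1.27, 0.165 and 17.5 CPM in Ptprz1+/+ and 0.496, 3.29 and 13.0 CPM in Ptprz1-/-. It was highest in both replicates 3, the libraries with the most endothelial marker RNA, and its log2 fold change was -0.17 with a standard error of 1.59. The part of either cell type in these values was not tested. Gdf10, also chosen after its values were seen, had a mean of 44.5 FPKM (1.02 to 137), beside 18.6 FPKM for Bmp4. In replicate 1 of both genotypes it was below Bmp4, and in the other libraries above. The shares and ratios of ligands given above do not include Gdf10.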
